A study of Homo sapiens with 4 samples.

Results

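The 44 genes described here make the machinery of DNA replication in S phase and of chromosome separation in mitosis, and they were set against each other in HEK293 cells that had been deprived of serum. They were taken from a list of names, 20 of replication and 24 of mitosis, out of 19775 genes that had a probe set with exactly 1 gene symbol on the array, and each gene was read from its brightest such probe set. The study measured RNA on 4 Affymetrix arrays. HEK293 is a human embryonic kidney line transformed with adenovirus DNA. The 2 LPA arrays (numbers 1 and 2) held RNA of HEK293 cells that were kept in serum-free medium overnight and then given 1 µM lysophosphatidic acid (LPA), a lipid of serum that acts through G protein-coupled receptors, for 2 h. The 2 untreated arrays (numbers 1 and 2, titled Vc) held RNA of the same line with the treatment given as none. What the untreated cells received in place of LPA is not given in the labels, nor whether equal numbers share a culture day. No array of cells in serum was used here, so the levels below have no growing culture beside them. Nothing in the labels says that the 2 arrays of a group came from separate cultures, so p-values measure only how these arrays vary, and that variation may be technical.

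Replication genes are switched on late in G1, when cyclin-dependent kinases inactivate the retinoblastoma (RB) family and E2F factors are freed at their promoters. Mitosis genes come on later, through the B-MYB and FOXM1 factors, which reach promoters through the MuvB complex bound at a short element called the cell cycle genes homology region (CHR), often near CCAAT boxes bound by NF-Y. In quiescent cells the same MuvB core, joined by RB family members as the DREAM complex, holds both groups down. HEK293 cells carry the adenovirus E1A protein, which binds the RB family.

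The promoters show how the groups differ in sequence, apart from any array value. RefSeq promoters (GRCh38.p14, 250 bases before to 50 after each gene start) were matched for 36 of the 44 genes; MCM4, MCM5, CCNE2, AURKA, TTK, TPX2, BIRC5 and UBE2C had no entry. They were searched on both strands for E2F letters (TTTGGCGC, TTTCCCGC or TTTCGCGC), CHR letters (TTTGAA or TTCGAA) and CCAAT. E2F letters were found in 13 of the 17 replication genes (76.5%) and 2 of the 19 mitosis genes (10.5%), against 3.3% of all 27305 genes with a promoter. CHR letters ran the other way, in 2 of 17 replication genes (11.8%) and 14 of 19 mitosis genes (73.7%), against 19.5% of all genes. CCAAT was common to both, in 12 of 17 (70.6%) and 17 of 19 (89.5%), against 39.7%, and 13 of the 19 mitosis genes (68.4%) held CCAAT together with CHR letters, against 7.85%. TTCGAA reads the same on both strands, some E2F matches overlap on opposite strands (MCM2, MCM6), and in MKI67 a CHR match overlaps a CCAAT box. A match is a description of letters and not a bound site.

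The promoters of 4 replication genes are printed from 150 bases before to 20 bases after the RefSeq start, 5′ to 3′ on the gene's strand, because PCNA (the sliding clamp), TYMS (thymidylate synthase), MCM3 and MCM6 (helicase subunits) carry the E2F letters and recur in the results. Capitals mark every E2F, CHR or CCAAT match on either strand, so that GCGGGAAA and GCGCGAAA are E2F letters read from the other strand and ATTGG is CCAAT reversed.
PCNA chr20:5126603-5126772, minus strand: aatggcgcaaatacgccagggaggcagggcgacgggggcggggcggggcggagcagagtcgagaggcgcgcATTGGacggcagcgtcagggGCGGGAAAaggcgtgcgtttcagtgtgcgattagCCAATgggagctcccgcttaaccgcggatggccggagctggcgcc
TYMS chr18:657503-657672, plus strand: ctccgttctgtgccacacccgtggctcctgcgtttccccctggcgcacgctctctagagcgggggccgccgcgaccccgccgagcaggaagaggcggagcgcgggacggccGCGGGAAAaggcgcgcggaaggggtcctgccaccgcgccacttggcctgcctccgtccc
MCM3 chr6:52284723-52284892, minus strand: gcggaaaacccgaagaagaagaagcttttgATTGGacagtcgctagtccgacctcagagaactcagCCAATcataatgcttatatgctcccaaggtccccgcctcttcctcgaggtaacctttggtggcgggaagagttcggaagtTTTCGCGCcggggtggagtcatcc
MCM6 chr2:135876424-135876593, minus strand: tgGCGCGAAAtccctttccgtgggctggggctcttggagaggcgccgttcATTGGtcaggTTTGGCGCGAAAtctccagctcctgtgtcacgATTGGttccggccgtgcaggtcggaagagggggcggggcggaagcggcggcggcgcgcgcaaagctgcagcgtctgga
TYMS has E2F letters and no CCAAT in this window, and in MCM6 a pair of E2F matches on opposite strands overlap in one run of capitals.

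Mitosis promoters follow in the same form for CCNB2 (a mitotic cyclin), PLK1 (polo-like kinase), KIF11 (the motor that pushes spindle poles apart) and CDK1 (the mitotic kinase), because they show the CCAAT and CHR arrangement and one exception. TTCAAA is TTTGAA on the other strand.
CCNB2 chr15:59104996-59105165, plus strand: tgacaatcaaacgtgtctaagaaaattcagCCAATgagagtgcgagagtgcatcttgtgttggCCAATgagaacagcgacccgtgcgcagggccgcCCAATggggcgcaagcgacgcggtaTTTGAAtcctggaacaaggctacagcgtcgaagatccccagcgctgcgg
PLK1 chr16:23678739-23678908, plus strand: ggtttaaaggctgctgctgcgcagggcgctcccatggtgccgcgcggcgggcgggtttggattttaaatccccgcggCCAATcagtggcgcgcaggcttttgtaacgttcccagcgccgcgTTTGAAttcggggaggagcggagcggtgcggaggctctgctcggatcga
KIF11 chr10:92592980-92593149, plus strand: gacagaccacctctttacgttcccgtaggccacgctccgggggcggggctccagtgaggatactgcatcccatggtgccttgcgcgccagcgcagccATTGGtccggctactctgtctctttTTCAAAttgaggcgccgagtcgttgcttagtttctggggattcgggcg
CDK1 chr10:60778328-60778497, plus strand: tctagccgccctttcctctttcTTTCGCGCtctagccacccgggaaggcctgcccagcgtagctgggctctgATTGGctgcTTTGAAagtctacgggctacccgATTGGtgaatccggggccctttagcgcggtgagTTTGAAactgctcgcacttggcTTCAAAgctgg
In the stretch shown, CCNB2 has 3 CCAAT boxes before its CHR letters, while PLK1 and KIF11 have 1 each. CDK1, of which the second RefSeq promoter is shown, holds all 3 kinds of match, and it is one of 3 genes (with MCM6 and NUSAP1) that hold both E2F and CHR letters.

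**Figure D1:**
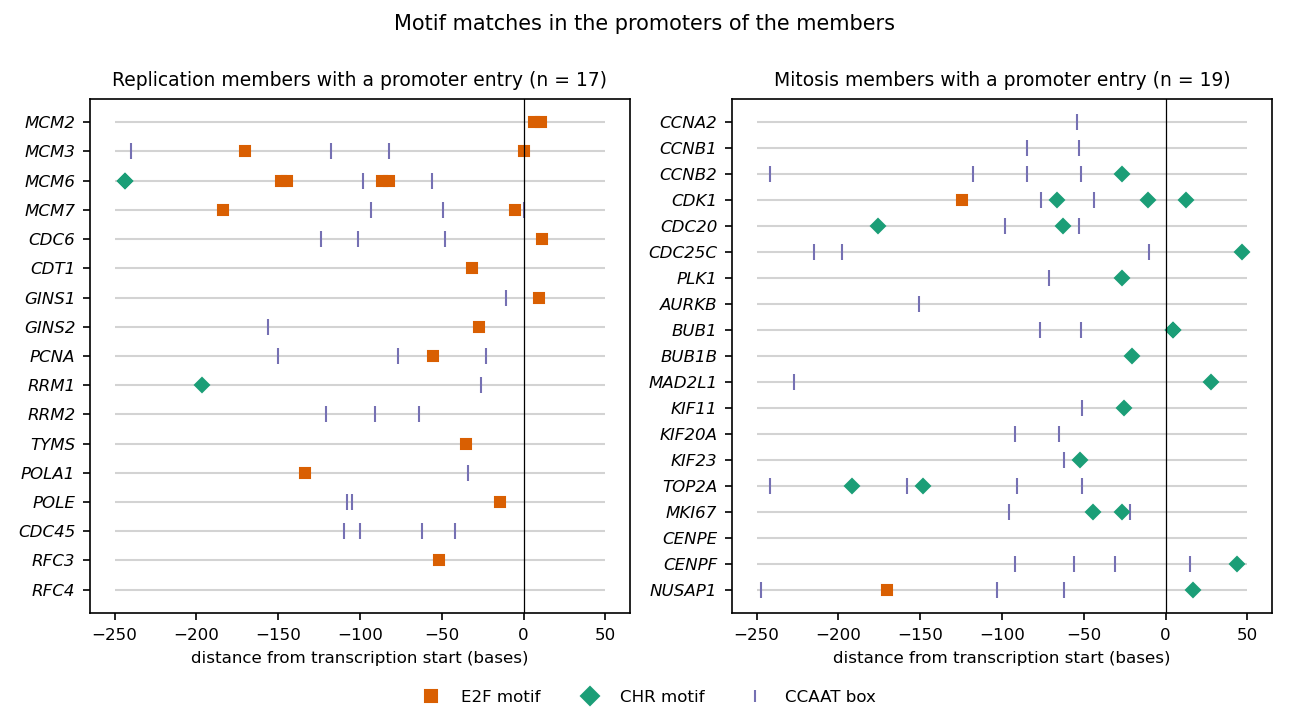
Positions of E2F, CHR and CCAAT matches in the promoters of the 36 genes with a RefSeq entry, as bases from the gene start (x axis), replication genes in one panel and mitosis genes in the other. A gene with several promoters is drawn with the one that holds most kinds of match, then most matches. E2F letters are in 13 of 17 replication genes and CHR letters in 14 of 19 mitosis genes.

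Every one of the 44 genes was above the filter on dim probe sets, a mean signal at the 40th percentile of genes (70.5 MAS5 signal units), which 11865 of the 19775 genes passed. Signals of replication genes ran from 698 units (POLE, the leading-strand polymerase, in untreated number 2) to 21124 units (RRM1, the large subunit of ribonucleotide reductase, in LPA number 1). Among mitosis genes they ran from 239 units (PLK1 in LPA number 2) to 19329 units (CDK1 in untreated number 2). The signal of 1 probe set is not on the same scale as that of another, so these are ranges and not an order of expression. RNA of both programmes was thus above the filter in the LPA cells, after their night without serum, and in the untreated cells. In a whole culture, fewer cells in S phase or mitosis cannot be told apart from less of a transcript per cell.

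**Figure D2:**
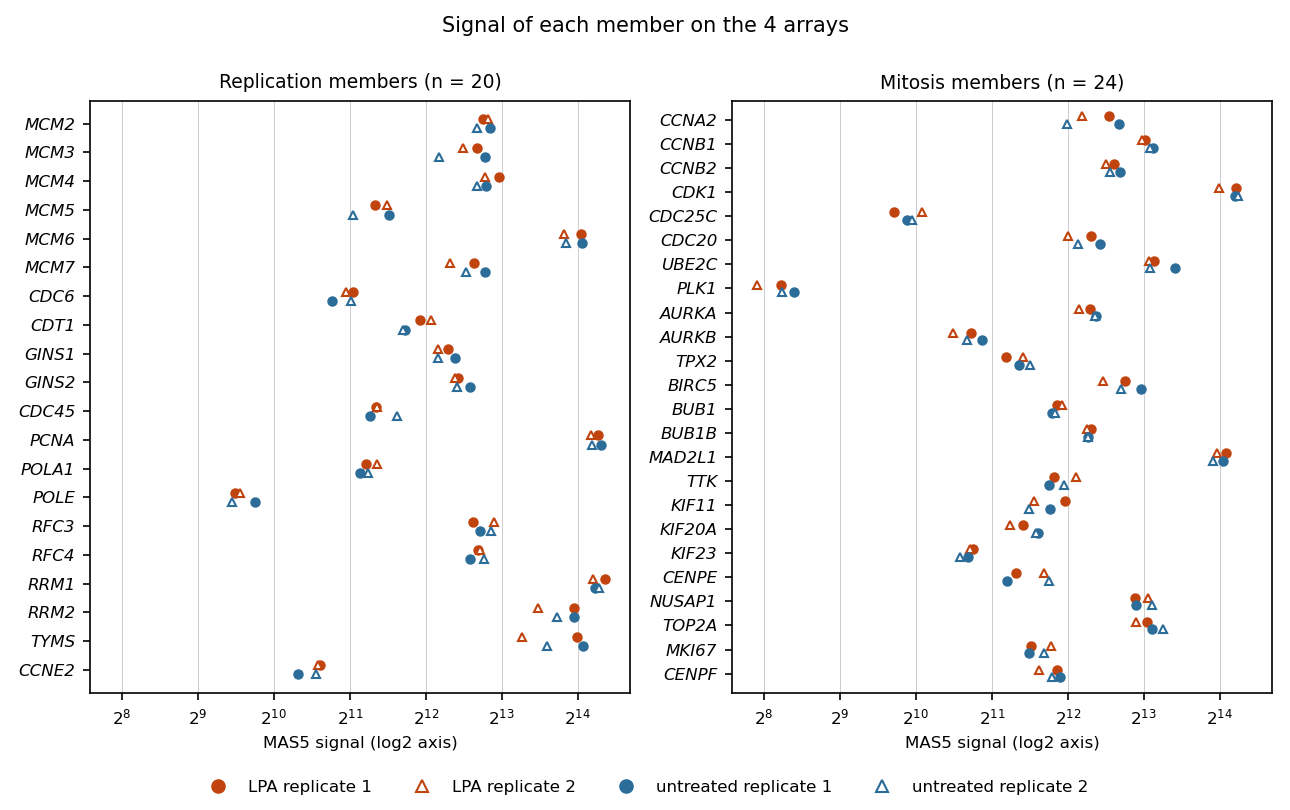
MAS5 signal (log axis) of each of the 20 replication and 24 mitosis genes on the 4 arrays, LPA and untreated in different colours and numbers 1 and 2 as different symbols. All points lie above the filter value of 70.5 units, which is not drawn, and for most genes the 4 points nearly coincide.

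The arrays had equal trimmed mean signals (500.1 units each), so the values are relative to each array's total. The median over all 54675 probe sets was 70.7 and 72.3 units on the LPA arrays and 70.3 and 76.1 units on the untreated arrays (number 1 first). The ratio of 3′ to 5′ control probe sets, which rises with RNA degradation or short cDNA, was 13.6 and 18.8 for ACTB in LPA cells and 13.4 and 12.6 in untreated cells. For GAPDH it was 1.35 and 1.38 with LPA, against 1.25 and 1.22 untreated; its part in the results below was not tested. The labels cite a labelling manual for whole transcripts beside these 3′ probe sets, so the ratios are set only between arrays here. Of 9 measured marker genes of HEK293 cells, 8 were above the filter (VIM, KRT18 and NEFL among them, LHX1 below it). Together the 9 summed to 33999 and 30200 units with LPA, against 35585 and 40055 untreated. VIM alone gave 24350 and 19900 of these units with LPA and 26880 and 30200 untreated. PAX2 was dim, at 93.6 and 97.4 units with LPA and 95.1 and 136 untreated. Of 11 marker genes of blood, endothelial, liver, muscle, glial and fibroblast cells, 3 were above the filter (COL1A1, COL3A1 and PECAM1). All 11 together summed to 1343 and 1430 units with LPA and 1476 and 1755 untreated, most of it from COL1A1. Probe sets differ in scale, so each sum is compared only between arrays and not with the other sum. The blood markers PTPRC, CD14 and CD3E were all below 70.5 units on every array.

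Whether LPA moves these genes within 2 h was asked first. No replication gene and no mitosis gene passed the test: 0 of 44 had an adjusted p under 0.05 (limma on log2(signal + 1), Benjamini-Hochberg over 11865 genes), against 0.0% of all genes tested, and the lowest adjusted p among them was 0.9999. At an unadjusted p under 0.05 the count was also 0 of 44 in this fit, against 1.74% of all genes (207 genes). This fit has no term for the replicate number. With such a term, CDT1 and KIF20A had unadjusted limma p of 0.015 and 0.020 (adjusted p = 0.41 and 0.46). The share of all genes under 0.05 was not counted for that fit. The log2 difference, LPA minus untreated, had a median of 0.0024 over the replication genes (range -0.20 to 0.29) and -0.081 over the mitosis genes (range -0.27 to 0.13), against 0.0090 over all genes tested. Signs were even among the replication genes, with 10 above 0 and 10 below, and 15 of the 24 mitosis genes were below 0, against 48.1% of all genes.

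The intervals put limits on what an unseen change could be, for the probe set used and on these arrays only. Dimmer probe sets of MKI67 and KIF23 gave 0.565 and 0.561, outside the intervals of the probe sets used (upper ends 0.44 and 0.47). The 95% interval of the difference lay within a 1.5-fold change in either direction for 39 of the 44 genes (18 of 20 replication and 21 of 24 mitosis genes), against 32.1% of all genes tested, and within a 2-fold change for all 44. The exceptions at 1.5-fold were CDT1, TYMS, PLK1, BIRC5 and KIF20A. The genes are brightly measured, with a median standard error of 0.16 on the log2 scale, against 0.24 over all genes.

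**Figure D3:**
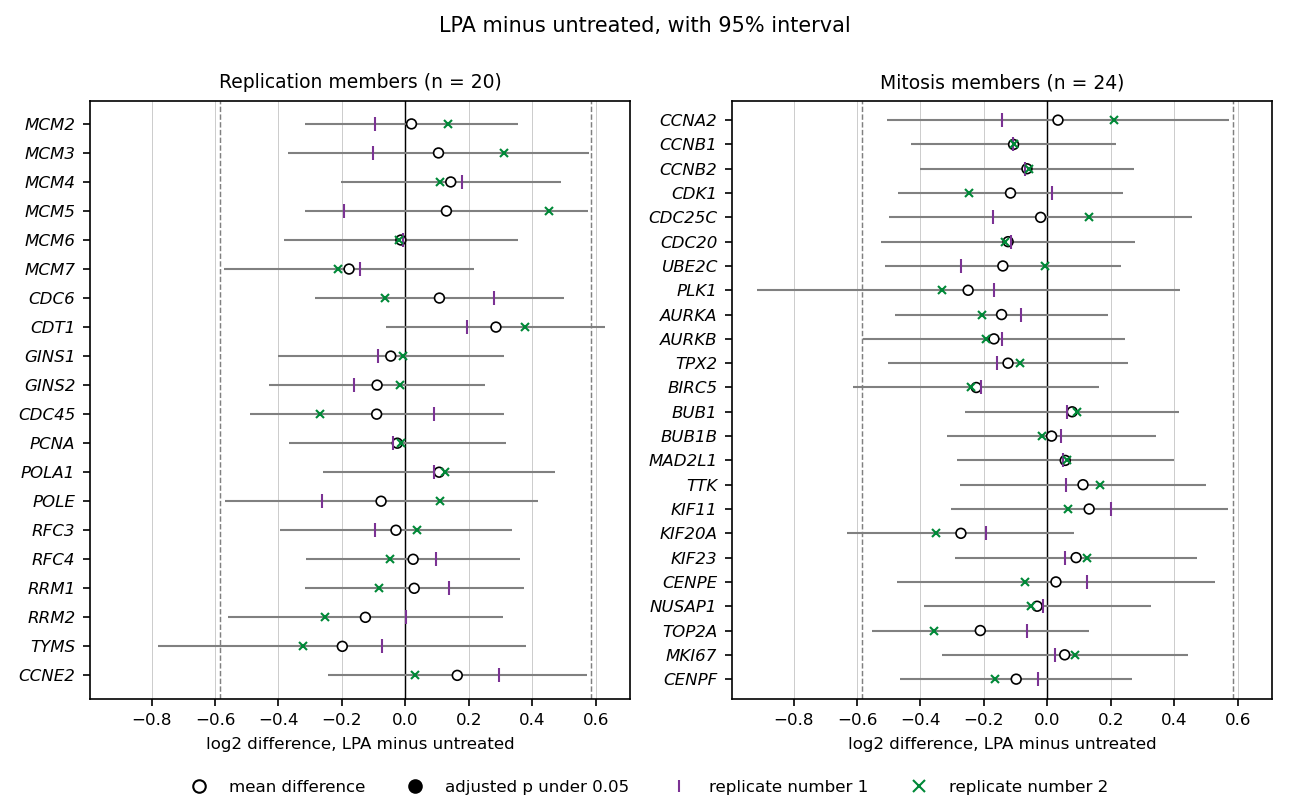
Log2 difference, LPA minus untreated (x axis), for each replication and mitosis gene, with its 95% interval from limma and the difference within number 1 and within number 2. Dashed lines mark a 1.5-fold change, every interval includes 0, and no gene had an adjusted p under 0.05.

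Licensing factors load the MCM helicase at origins before S phase. CDT1, the loading factor that is destroyed once S phase begins, had signals of 4307 and 3874 units in LPA cells (numbers 2 and 1) and 3316 and 3387 units in untreated cells. The groups did not overlap, LPA being above untreated in both numbers. The difference was 0.29 ± 0.15 (log2, SE, n = 2 each; limma adjusted p = 0.9999), with an interval of -0.060 to 0.63. A second, dimmer CDT1 probe set gave 0.30, with 1399 and 714 units with LPA and 868 and 755 units untreated (numbers 2 and 1). Its groups overlapped, and LPA was below untreated in number 1. Its partner CDC6 differed by 0.11, and the helicase activators GINS1, GINS2 and CDC45 lay between -0.091 and -0.046.

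The MCM complex, which unwinds DNA ahead of the polymerases, was on neither side. MCM2 had 7201 and 6877 units with LPA and 6568 and 7342 units untreated, and its groups overlapped, for a difference of 0.019 ± 0.15. MCM4 had 7033 and 8029 units with LPA and 6526 and 7098 units untreated, also overlapping, for a difference of 0.14 ± 0.15. MCM7 had 5100 and 6359 units with LPA and 5910 and 7021 units untreated, overlapping as well, for -0.18 ± 0.17. Of the 6 subunits, which work as 1 hexamer, 4 were above 0 and 2 below, and with quantile normalization MCM6 too was above 0 (0.079).

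Nucleotide supply and the replication fork gave similar values. TYMS, which makes thymidylate, had 9867 and 16330 units with LPA, against 12351 and 17188 untreated. These groups overlapped, since the arrays of number 2 were low in both, and the difference was -0.20 ± 0.25. PCNA had 18482 and 19797 units with LPA and 18655 and 20322 units untreated, for a difference of -0.026 ± 0.15. The other members at the fork were POLA1 of the priming polymerase at 0.11, POLE at -0.077, and the clamp loader subunits RFC3 and RFC4 at -0.030 and 0.024. The ribonucleotide reductase subunits RRM1 and RRM2 were at 0.028 and -0.13.

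CCNE2, the E2-type cyclin that drives entry into S phase, had 1531 and 1561 units with LPA and 1498 and 1272 units untreated. LPA was above untreated on all arrays, narrowly so in number 2. The difference was 0.16 ± 0.18 (limma adjusted p = 0.9999), and the gene's dimmer probe set gave -0.12.

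Among mitosis genes, the regulators of entry come first. CDK1 had 16296 and 19082 units with LPA and 19329 and 18902 units untreated, overlapping, for a difference of -0.12 ± 0.15. CCNB1, the cyclin that activates it, had 8101 and 8282 units with LPA and 8715 and 8926 units untreated. The CCNB1 groups did not overlap, LPA being lower, for a difference of -0.11 ± 0.14. The gene's other probe set went the opposite way, with 3375 and 3007 units with LPA and 2681 and 2914 units untreated, higher without overlap, at 0.19. CCNB2 (-0.064) and the activating phosphatase CDC25C (-0.021) lay closer to 0, and CCNA2, the cyclin of S phase and mitotic entry, at 0.033. CDC20 and UBE2C, which work with the anaphase-promoting complex in the destruction of cyclin B, were at -0.12 and -0.14.

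The 5 genes grouped here as mitotic kinases and their partners were PLK1, AURKA, AURKB, BIRC5 and TPX2. All had differences below 0 in both numbers, with a median of -0.17, and none passed the test. Kinases placed in other groups lay on both sides of 0. CDK1 was at -0.12, and BUB1 and TTK of the spindle checkpoint were at 0.078 and 0.11. Among further mitosis genes PBK was at -0.13, and NEK2, higher with LPA without overlap, at 0.16. AURKA, the centrosome kinase, had 4542 and 5015 units with LPA and 5242 and 5310 units untreated. PLK1 had 239 and 300 units with LPA and 301 and 337 units untreated. In both genes the groups did not overlap, LPA being lower, narrowly for PLK1, and the differences were -0.14 ± 0.15 and -0.25 ± 0.29. AURKA's second probe set gave -0.014.

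AURKB, the kinase of the chromosomal passenger complex, had 1433 and 1689 units with LPA and 1640 and 1864 units untreated. BIRC5 (survivin, of the same complex) had 5643 and 6902 units with LPA and 6664 and 7975 units untreated. Both overlapped between groups because number 2 was the lower number in each, and both were lower with LPA within each number. Their differences were -0.17 ± 0.18 and -0.22 ± 0.17, and that of TPX2, which activates AURKA on the spindle, was -0.12. The 6 further probe sets of AURKA, AURKB and BIRC5 above the filter had mean differences below 0 too, from -0.385 to -0.014. They did not all hold within each number: in each of these genes a further probe set was higher with LPA within a single number.

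Spindle checkpoint genes gave differences above 0 on their brightest probe sets. BUB1, BUB1B, MAD2L1 and TTK, whose products hold back anaphase until chromosomes are attached, were 4 of 4 above 0, with a median of 0.067, and BUB1B was below 0 within number 2. BUB1 had 3901 and 3700 units with LPA and 3656 and 3544 units untreated. Its groups did not overlap, LPA being higher, for a difference of 0.078 ± 0.15. That direction depended on the probe set: a dimmer BUB1 probe set gave -0.17, and the other MAD2L1 probe sets gave -0.18 and -0.0030.

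Motors were split. KIF20A, a kinesin of the central spindle, had 2414 and 2726 units with LPA and 3079 and 3119 units untreated. It was lower with LPA on every array, and its difference of -0.27 ± 0.16 (limma adjusted p = 0.9999, interval -0.63 to 0.085) was the largest in size below 0 among the 44 genes. KIF23, another central spindle kinesin, had 1672 and 1720 units with LPA and 1534 and 1654 units untreated. KIF23 was higher with LPA on every array, by 0.090 ± 0.17, and KIF11, CENPE (the kinetochore motor) and NUSAP1 (a microtubule binder) lay between -0.032 and 0.13 with overlapping groups.

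TOP2A, the topoisomerase that untangles sister chromatids, had 7624 and 8469 units with LPA and 9767 and 8864 units untreated. LPA was lower on every array, most in number 2, and the difference was -0.21 ± 0.15 (limma adjusted p = 0.9999). Its second bright probe set gave -0.0060. MKI67, the Ki-67 protein that coats mitotic chromosomes, had 3514 and 2920 units with LPA and 3310 and 2875 units untreated, overlapping, for a difference of 0.055 ± 0.17. The kinetochore protein CENPF was at -0.098.

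Counted over all 44 genes, LPA was above untreated without overlap in 4 (CDT1, CCNE2, BUB1 and KIF23; 9.09%, against 14.4% of all genes tested). LPA was below without overlap in 5 (CCNB1, PLK1, AURKA, KIF20A and TOP2A; 11.4%, against 12.5%). Both shares were near or under those of all genes. The mean log2 signal of the mitosis genes minus that of the replication genes was -0.43 and -0.45 on the LPA arrays and -0.34 and -0.39 on the untreated arrays, numbers 2 and 1. The LPA arrays were thus both lower, a gap for which no test was made. By promoter letters, the median LPA difference was -0.028 over the 12 genes with E2F and no CHR letters, 0.013 over the 13 with CHR and no E2F letters, -0.032 over the 3 with both and -0.099 over the 8 with neither, and no test was made of these groups.

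**Figure D4:**
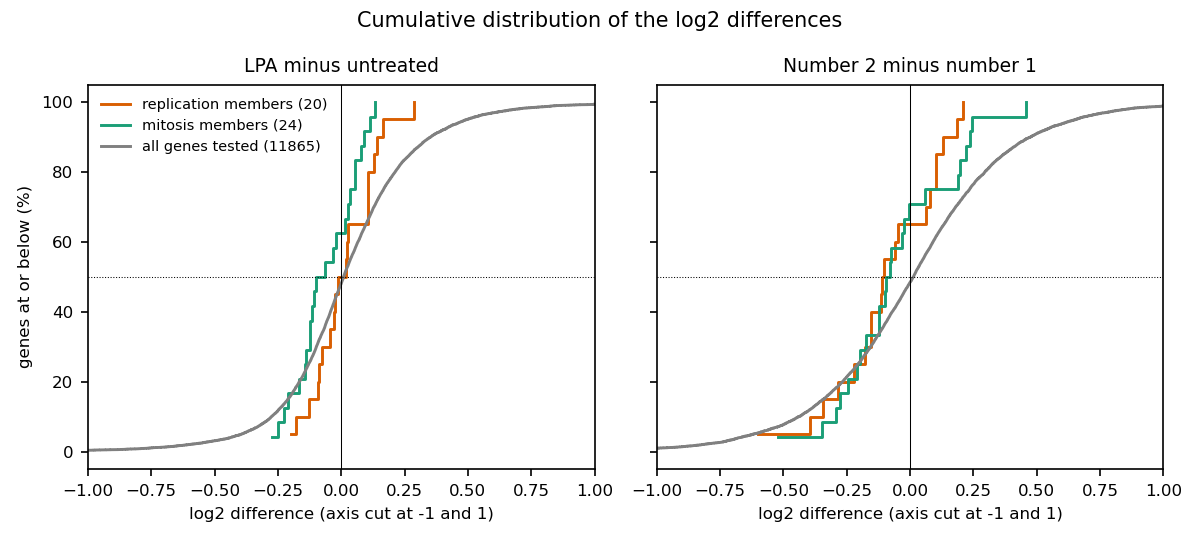
Cumulative share of genes (y axis) against the log2 difference (x axis), LPA minus untreated in one panel and number 2 minus number 1 in the other, for replication genes, mitosis genes and all 11865 genes tested. With LPA the replication curve crosses near 0 and the mitosis curve lies slightly to its left, while by number both member curves cross the middle of the y axis left of the curve of all genes.

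The arrays with number 2 were then set against those with number 1, with the treatment as a term; the labels do not say what the numbers stand for. By number, 5 of the 44 genes passed the test (11.4%), against 11.6% of all genes tested (1382 genes), so that the members were called about as often as any gene. Lower in number 2 were 4 of them (TYMS, MCM3, CCNA2 and KIF11), against 5.86% of all genes, and CENPE was higher, against 5.79%. At an unadjusted p under 0.05 there were 11 members, against 23.7% of all genes. The calls lean on the spread that limma borrows across genes of like brightness: with 1 residual degree of freedom and no such intensity trend, 0 of 44 members and 0 of all genes were called.

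TYMS had 9867 and 12351 units in number 2 (LPA and untreated) and 16330 and 17188 units in number 1. Both arrays of number 2 were lower than both of number 1, and the log2 difference, number 2 minus number 1, was -0.60 ± 0.15 (limma adjusted p = 0.0063). A dimmer TYMS probe set gave -0.62. The mean over all TYMS probe sets, a very dim one included, gave -0.14 (adjusted p = 0.82).

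MCM3 had 5761 and 4643 units in number 2 (LPA and untreated), against 6556 and 7040 units in number 1. Number 2 was lower without overlap, more so in untreated cells, and the difference was -0.39 ± 0.12 (limma adjusted p = 0.031). MCM7 had 5100 and 5910 units in number 2 and 6359 and 7021 units in number 1, lower without overlap, at -0.28 ± 0.12, and did not pass (adjusted p = 0.11). All 6 MCM genes had mean differences below 0, with a median of -0.19. Within the LPA arrays, MCM2 and MCM5 were higher in number 2 (0.066 and 0.17), and further MCM probe sets lay on both sides of 0.

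RRM2, the subunit of ribonucleotide reductase that is limiting in S phase, had 11432 and 13619 units in number 2 and 15857 and 15852 units in number 1. It was lower without overlap, at -0.35 ± 0.15, and did not pass (limma adjusted p = 0.14), and its other probe set gave 0.0080. RFC3 went the other way, with 7645 and 7454 units in number 2 and 6309 and 6743 units in number 1, at 0.21 ± 0.12 (adjusted p = 0.30). Not all replication genes therefore shared the direction, and 13 of 20 were below 0.

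CCNA2 had 4684 and 4049 units in number 2 (LPA and untreated) and 5943 and 6564 units in number 1. Number 2 was lower on both arrays, and the difference was -0.52 ± 0.12 (limma adjusted p = 0.0033). The gene's second probe set gave -0.31. KIF11 had 2997 and 2868 units in number 2, against 3993 and 3477 units in number 1, lower without overlap, for -0.35 ± 0.11 (limma adjusted p = 0.037).

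CENPE, which moves chromosomes to the spindle equator, had 3284 and 3450 units in number 2 and 2559 and 2347 units in number 1. It was higher in number 2 on both arrays, by 0.46 ± 0.11 (limma adjusted p = 0.0063). MCM3, KIF11 and CENPE have no other probe set with 1 symbol on the array. CDC20 and BIRC5 were lower in number 2 without overlap, at -0.29 and -0.27, and did not pass (adjusted p = 0.086 and 0.14).

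**Figure D5:**
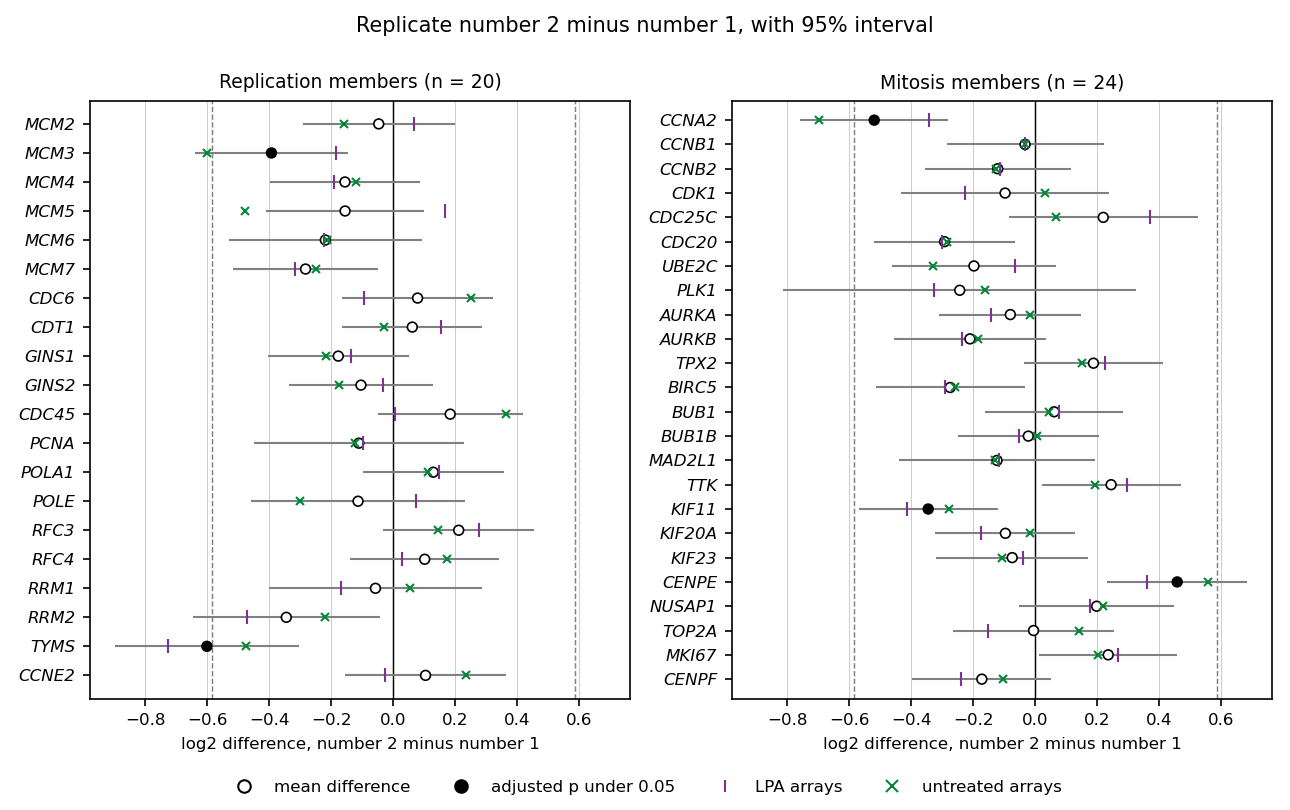
Log2 difference, number 2 minus number 1 (x axis), for each replication and mitosis gene, with its 95% interval from limma and the differences within the LPA and the untreated arrays. Filled circles mark the 5 genes with an adjusted p under 0.05: TYMS, MCM3, CCNA2 and KIF11 left of 0 and CENPE right of it.

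Over all 44 genes, number 2 was higher without overlap in 10 (22.7%, against 26.5% of all genes tested) and lower in 18 (40.9%, against 24.1%). The median difference was -0.11 over replication genes and -0.089 over mitosis genes, against 0.014 over all genes, both below the median of all genes. With quantile normalization these medians were -0.074 and -0.053, against 0.021. Within the untreated arrays they were -0.14 and -0.027, against 0.005, and within the LPA arrays -0.064 and -0.12, against 0.022. The members are bright, and the highest signal of any probe set was 62508 units on LPA number 2, against 93776 to 104012 on the other arrays. The part of brightness was not tested. The ACTB ratio of 3′ to 5′ signal was 18.8 and 12.6 in number 2 (LPA and untreated) and 13.6 and 13.4 in number 1, and its part was not tested. Leaving out LPA number 1 or untreated number 1, in fits without a treatment term, left 0 members called. Without LPA number 2 there were 3 (MCM3, TYMS and CCNA2), and without untreated number 2 there were 2 (TYMS and RRM2).

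Further genes of each programme were drawn from lists that do not hold the 44. Of 44 other replication genes 42 were tested, and LPA changed none at an adjusted p under 0.05: 21 were above 0 and 21 below, with a median of 0.0020. By unadjusted p the first 3 were GINS4, a subunit of the GINS complex (684 and 765 units with LPA, 545 and 519 untreated; log2 difference 0.44 ± 0.22), MCM10, a helicase activator (0.29 ± 0.16), and TK1, the S phase thymidine kinase (-0.27 ± 0.17). GINS4 and MCM10 were higher with LPA without overlap and TK1 lower, each with a limma adjusted p of 0.9999. By number, 4 of the 42 were called (9.52%, against 11.6% of all genes tested): 3 rose in number 2 (ORC5, TIPIN and DNA2, by 0.40, 0.41 and 0.43) and UHRF1, which guides maintenance of DNA methylation, fell (-0.39).

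Of 64 other mitosis genes 63 were tested, and LPA changed none at that threshold: 29 were above 0 and 34 below, with a median of -0.0040. ECT2, the exchange factor that activates RhoA for cytokinesis, had 5062 and 4217 units with LPA and 3966 and 3362 units untreated. LPA was above untreated on every array, by 0.34 ± 0.17 (limma adjusted p = 0.9999). CDCA5 (sororin, which protects cohesion) was lower without overlap, at -0.32 ± 0.16, and SGO1 (shugoshin) higher, at 0.59 ± 0.34, neither passing. The SGO1 difference was 0.049 within number 1 and 1.13 within number 2, where the untreated array was low (177 units). By number, 6 of the 63 were called (9.52%, against 11.6% of all genes tested): CEP55 (0.49) and CENPK (0.38) rose in number 2, and CDC25A (-0.47), PBK (-0.41), SPC24 (-0.73) and ESPL1 (-0.38) fell.

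Reading the genes from other probe sets shows how far 1 probe set stands for its gene. The 44 genes had 48 further probe sets, of which 39, in 27 genes, were above the filter. Their LPA differences had the sign of the one used in 26 of 39, with a median gap of 0.13, and their number differences in 22 of 39, with a median gap of 0.21. The 3 largest gaps in the LPA difference were those of MKI67 (0.565 beside 0.055), KIF23 (0.561 beside 0.090) and CENPF (0.27 beside -0.098), each in a probe set dimmer than the one used. CDK1 had 3 further probe sets, at -0.22, -0.18 and 0.24 beside -0.12, and CCNA2 had 1, at -0.30 beside 0.033. The median size of the LPA difference over the 44 genes was 0.105.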

How the data were processed

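The deposited table holds a linear intensity for each of 54675 probe sets on every array, and MAS5 is the tool named in the submitters' processing notes. Its scaling target, background settings and detection calls were not given in the sources used here. The authors' values have equal trimmed means (2% trimmed at each end), so each intensity is relative to its array. GEO's platform annotation gave 1 symbol to 41097 probe sets, several to 1801 and none to 11777. Values were taken as log2(signal + 1), the brightest probe set was kept per gene, and genes under the 40th percentile were left out. limma 3.58.1 (R 4.3.3; lmFit and eBayes with an intensity trend) tested LPA against untreated without a block, and number 2 against number 1 with the treatment as a term, on all 11865 genes, with Benjamini-Hochberg adjustment at 0.05; the second fit has 1 residual degree of freedom. With 4 arrays, their number limits precision. The scripts were tested on simulated data.

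The members and lists were chosen with earlier results of these data known. Genes named were, in each list, the 5 with the smallest unadjusted p in each comparison (3 in the wider lists), all called genes, and CDK1, CCNB1, TOP2A, MKI67, MCM2, PCNA and CCNE2; other genes appear by role. Alternatives were quantile normalization, a pseudocount of 64, no filter or one at the 60th percentile, averaging a gene's probe sets, dropping the intensity trend, the replicate block, no treatment term, and leaving out each array. Promoters were searched in Python 3.11.15 (pandas 2.3.3), and figures drawn with matplotlib 3.10.9.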

Additional observations from a re-analysis of the deposited data

How the results depend on the processing

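With LPA, no member was called under any alternative run, and no called value turned its direction in either comparison. The count over all genes (0) became 32 with the replicate block and 4 with the block and quantile normalization, with 0 members called in each, and 0 to 3 with 1 array left out. Deviations of same-numbered arrays from their group means correlated at 0.33 over 11865 genes, which with 2 pairs does not establish a pairing. The median LPA difference of the replication genes was 0.068 with quantile normalization, 0.022 with the mean of all probe sets and -0.074 to 0.043 with 1 array left out. For the mitosis genes it was -0.037 with quantile normalization, -0.064 with the 60th percentile filter (which drops PLK1), -0.042 with the mean of all probe sets and -0.12 to -0.051 with 1 array left out. The gap between these medians, mitosis minus replication, was -0.11, -0.067 and -0.064 under those 3 settings and -0.11 to -0.038 with 1 array left out. Single members changed the sign of an uncalled LPA difference in 4 of 44 cases with quantile normalization and in 9 with the mean of all probe sets. By number, the calls were less stable. Over all genes there were 168 with the mean of all probe sets, 0 without the intensity trend, 445 without the treatment term and 39 to 631 with 1 array left out, against 1382. Members called were 0, 0, 3 (TYMS, CCNA2 and CENPE) and 0 to 3 under the same settings, against 5. KIF11 was lost without a filter (4 called), and RRM2 or CDC20 was added with quantile normalization or the 60th percentile filter (6 called each). The median number difference of the mitosis genes ran from -0.17 to -0.00036 with 1 array left out. The cause of these shifts was not tested. Fits that leave out an array compare a lone array, assumed to vary like the other group, and by number they hold no treatment term. With 2 arrays a group, LPA intervals were widest for PLK1, the dimmest member, and for TYMS and CCNA2, which are bright.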

Other observations

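The promoter letters of the wider lists were counted in the same way. No array value entered the counts, though the lists were chosen with earlier results of these data known. Among 36 other replication genes with a RefSeq promoter (GRCh38.p14), E2F letters were in 12 (33.3%) and CHR letters in 3 (8.33%). Among 54 other mitosis genes, CHR letters were in 38 (70.4%) and E2F letters in 4 (7.41%), beside 19.5% and 3.3% of all genes. CCAAT was in 18 of the 36 replication genes and 38 of the 54 mitosis genes (70.4%), and CCAAT together with CHR letters in 0 of 36 and 30 of 54 (55.6%).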
